A study of Homo sapiens with 18 samples.

Results

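TIGK cells, human gingival keratinocytes (epithelial cells of the gum) immortalised with telomerase, were compared at 24 h and at 6 h after a scratch wound. The comparison rests on 6 of the 18 libraries of the series, 3 taken at 24 h and 3 taken at 6 h. The other groups used here are 3 TIGK libraries from cells that were not scratched (0 h), and 3 libraries each of HaCaT, an immortal line of skin keratinocytes, at 24 h and at 6 h after the same kind of wound. RNA was counted per gene, and of 58735 annotated genes 17409 passed a filter on low counts and were tested. The comparison asks which changes seen at 6 h had gone by 24 h and which had appeared since. TIGK and HaCaT are each a single line kept in culture, and the labels name no unscratched culture kept for 24 h, so that the scratch and the hours in the dish cannot be told apart. The labels do not say whether the 3 libraries of a group came from separate cultures. The p-values therefore cover the variation among these libraries alone, and that variation may be technical. In bulk RNA, fewer cells of a type and less RNA per cell cannot be told apart.

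Counted reads per library were 14763305 to 15367733 for the 24 h group, against 15690679 to 18039684 for the 6 h group. The unscratched group had 16199912 to 25011331. Library C at 6 h and library C at 0 h stood apart from the rest of TIGK, with 25161 and 26246 genes listed with a count, against 21457 to 22799 in the other 7. Mitochondrially encoded genes took 4.98% and 5.08% of their reads, less than in any other library. The letter C library differed most from its partners at 24 h too. Over genes, the chi-square per degree of freedom against libraries A and B was 15.6 and 17.3 at 0 h, 17.8 and 16.8 at 6 h and 17.8 and 13.4 at 24 h, while between A and B it was 6.67 at 0 h, 3.39 at 6 h and 7.03 at 24 h. On the second principal component, with 11.3% of the variance, libraries A, B and C at 24 h lay at 19.9, 9.98 and -23.8. They lay at 26.7, 29.8 and -11.2 at 6 h, and at -11, -15.8 and -24.5 at 0 h. Library C at 6 h thus lay among the 0 h libraries on this component. Pseudogenes took 0.697% of the reads of library C at 24 h, against 0.628% and 0.631% in A and B. Results that change without these libraries are named below. The keratinocyte label held against its markers: KRT5, KRT14, KRT17, TP63, CDH1, DSP, SFN and EPCAM were all detected, and their summed level lay between 38900 and 44020 CPM at 24 h and between 39660 and 40520 CPM at 6 h. Fibroblast markers summed to between 391.4 and 435.1 CPM at 24 h and between 240.7 and 289.1 CPM at 6 h, carried by DCN and COL1A1, while COL1A2 had no count in either group and PDGFRA had 1 and 11 counts in all. DCN encodes the matrix proteoglycan decorin. It had 222, 212 and 257 CPM at 24 h, against 105, 109.8 and 74.9 CPM at 6 h (log2 fold change 1.26 with SE 0.13, adjusted p = 4.3e-08). The melanocyte marker TYR, the immune markers CD3E and LYZ and the endothelial marker CDH5 had no count in either group, but other members of these lists had reads. The endothelial receptor gene KDR rose at a low level (4.53 ± 0.733 CPM at 24 h and 1.05 ± 0.368 CPM at 6 h, SD, n = 3). Tested melanocyte markers summed to between 20.99 and 27.63 CPM at 24 h and between 14.74 and 15.57 CPM at 6 h. For tested endothelial markers the sums were 4.718 to 6.465 CPM at 24 h and 1.504 to 2.196 CPM at 6 h. The immune marker CD14 had 2.939 to 3.556 CPM at 24 h and 3.713 to 5.513 CPM at 6 h. Of the 8 fibroblast, 6 melanocyte, 6 immune and 6 endothelial markers, 5, 3, 1 and 2 could be tested, and 1 fibroblast, 1 melanocyte (MITF) and 1 endothelial marker rose, while the immune marker CD14 was not called. The count of fibroblast markers that rose was 2 of the 5 under 6 alternatives (DESeq2, a stricter filter, 9 or 6 TIGK libraries, the letter as a block, and limma on FPKM). Their median log2 fold change was 0.94, and at 24 h against 0 h 4 of the 5 were called higher. The part of these markers in the results below was not tested.

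Keratinocytes at a wound edge loosen their contacts, remodel the actin cytoskeleton and secrete proteases to crawl over the gap, and later return to division and stratification. Interferons, secreted proteins that warn neighbouring cells of infection, act through STAT and IRF transcription factors that bind a promoter element called the ISRE and switch on antiviral genes. Genes used at G2 and mitosis often carry CCAAT boxes, which bind the factor NF-Y. Promoters are shown for genes of these 2 groups, whose lists moved almost as a whole between 6 h and 24 h. The choice was made after the motif shares were seen, and ribosome biogenesis, which moved as fully, is not shown. Each is the 250 bases before the annotated start, read 5′ to 3′ on the gene's strand from RefSeq (GRCh38.p14), with matches to the motif on either strand in capitals. For the ISRE the letters searched were GAAA, any 2 bases, and GAAA again. The 3 printed promoters belong to the antiviral genes IFIT3 (chr10:89327747-89327996, plus strand), DDX60 (chr4:168318753-168319002, minus strand) and ISG15 (chr1:1013247-1013496, plus strand), where the 2 matches in ISG15 overlap.
IFIT3: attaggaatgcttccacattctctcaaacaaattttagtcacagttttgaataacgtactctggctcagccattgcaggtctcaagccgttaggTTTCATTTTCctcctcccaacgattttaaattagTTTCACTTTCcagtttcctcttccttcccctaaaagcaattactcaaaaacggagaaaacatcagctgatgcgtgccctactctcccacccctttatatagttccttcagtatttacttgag
DDX60: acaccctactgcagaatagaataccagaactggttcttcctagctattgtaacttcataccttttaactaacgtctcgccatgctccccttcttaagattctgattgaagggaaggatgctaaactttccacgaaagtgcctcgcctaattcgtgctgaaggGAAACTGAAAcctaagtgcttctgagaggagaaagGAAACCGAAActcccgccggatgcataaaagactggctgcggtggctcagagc
ISG15: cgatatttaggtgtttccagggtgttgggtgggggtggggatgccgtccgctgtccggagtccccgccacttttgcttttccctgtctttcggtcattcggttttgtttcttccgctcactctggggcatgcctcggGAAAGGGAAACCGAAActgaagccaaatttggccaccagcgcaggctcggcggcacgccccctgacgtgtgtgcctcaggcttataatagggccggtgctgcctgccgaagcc
For CCAAT, the printed promoters belong to KIF20A, a mitotic kinesin (chr5:138178862-138179111, plus strand), and CCNB2, the mitotic cyclin B2 (chr15:59104896-59105145, plus strand).
KIF20A: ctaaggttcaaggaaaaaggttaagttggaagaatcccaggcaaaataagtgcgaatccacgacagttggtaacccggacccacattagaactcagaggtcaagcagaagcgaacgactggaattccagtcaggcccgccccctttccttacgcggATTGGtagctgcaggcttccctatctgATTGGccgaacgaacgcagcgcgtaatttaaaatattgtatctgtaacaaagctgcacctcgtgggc
CCNB2: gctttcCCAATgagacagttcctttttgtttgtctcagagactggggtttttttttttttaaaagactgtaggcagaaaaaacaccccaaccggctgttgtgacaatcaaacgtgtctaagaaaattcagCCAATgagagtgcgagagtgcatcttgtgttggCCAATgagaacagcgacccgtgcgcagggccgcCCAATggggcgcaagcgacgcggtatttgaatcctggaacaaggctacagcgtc

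The ISRE letters were found in 23 of the 34 interferon-stimulated genes that had an entry in the promoter table (67.6%), against 381 of the 11499 genes tested here that had one (3.31%). Among genes that rose by at least 1 log2 unit at 24 h against 6 h, 55 of the 520 with an entry held them (10.6%), and among genes that fell by as much 8 of 447 did (1.79%). Listed interferon-stimulated genes were not taken out of the rising set, so its count overlaps with that of the list. CCAAT occurred at least 2 times in 18 of 32 mitotic genes (56.2%), against 1685 of the 11499 genes (14.7%). At least 1 match was in 27 of the 32 (84.4%), against 40.8%. The E-box CACGTG was in 3 of 23 genes of ribosome biogenesis (13.0%, against 1269 of the 11499 genes tested), and the sterol element TCACNCCAC in 1 of 24 genes of cholesterol synthesis (4.17%, against 1.14%). These are counts of letters in a fixed window, and binding was not measured.

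Between 6 h and 24 h the expression of 6390 of the 17409 genes changed, 36.7% of those tested, at a false discovery rate under 0.05 (edgeR's quasi-likelihood test with Benjamini-Hochberg adjustment). Of these, 3092 were higher at 24 h (17.8%) and 3298 lower (18.9%). A change of at least 1 log2 unit was reached by 838 genes that rose (4.81%) and 734 that fell (4.22%), and the median size of a called change was 0.605 log2 units. All 3 libraries of one time lay above all 3 of the other for 7604 genes (43.7%). The shift was far wider than the early response, in which 630 genes differed between 6 h and 0 h (3.62%), and close in number to the 5617 genes that differed between 24 h and 0 h (32.3%). The early count depended on single libraries: it was 350 without library B at 6 h, 381 without library A at 6 h and 817 without library C at 6 h.

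**Figure D1:**
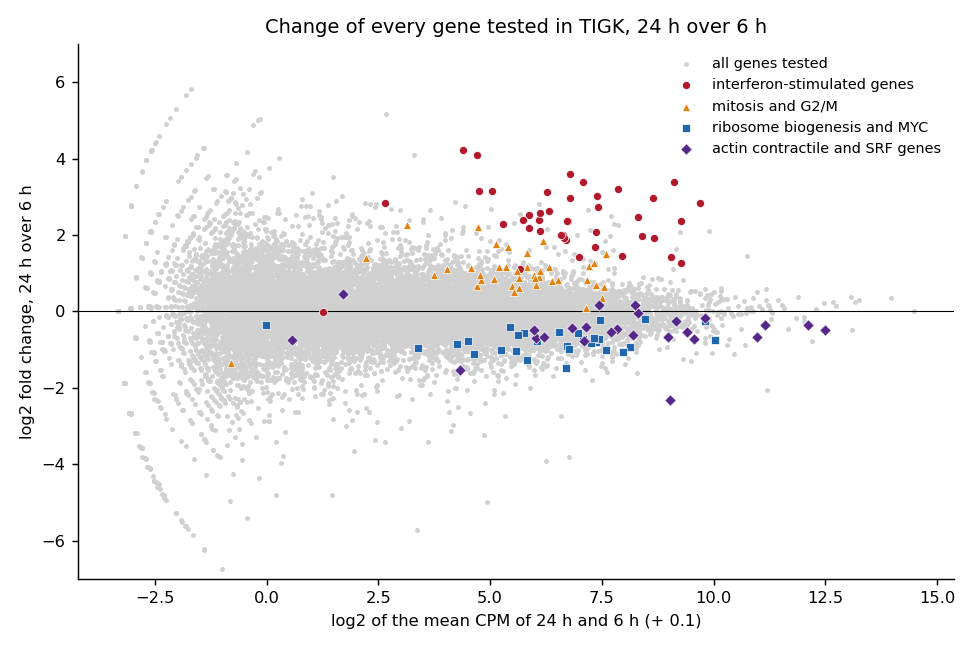
Log2 fold change of TIGK at 24 h over 6 h (vertical axis) against the log2 mean CPM of both times (horizontal axis) for the 17409 genes tested, each grey point a gene, with members of 4 lists in colour. Interferon-stimulated genes sit highest with a median of 2.40, mitotic genes lie mostly above 0, and genes of ribosome biogenesis and of the actin cytoskeleton lie mostly below it.

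Genes switched on by interferon had the highest share rising of the 30 lists plotted. Of 41 listed genes, 40 rose at 24 h against 6 h and none fell, against 17.8% rising among all genes, with a median log2 fold change of 2.40 where the median of all genes was 0.000512. The exception was IFITM2, at 2.29 ± 0.685 CPM at 24 h and 2.28 ± 0.351 CPM at 6 h (SD, n = 3), whose low value is uncertain because near-identical neighbours may take its reads. Their summed level lay between 11190 and 13590 CPM at 24 h and between 2109 and 2935 CPM at 6 h. At 6 h against 0 h none of the 41 had risen and 9 had fallen (2.5% and 1.12% of all genes), so 31 of them were new at 24 h and the 9 early falls had turned into rises. ISG15 is a ubiquitin-like protein that is attached to viral and cellular proteins. It had 953, 796 and 1296 CPM at 24 h, against 100.3, 114 and 75.2 CPM at 6 h (log2 fold change 3.39 with SE 0.16, adjusted p = 8.4e-14). The 3 libraries at 24 h lay above those at 6 h, as the choice of the largest rises required. The 6 h values were close to the 0 h values of 125, 115 and 108 CPM.

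Values of the other leading members are given by library in the order A, B, C, or as means. RSAD2 (viperin) makes an antiviral nucleotide analogue. It had 49.2, 28.7 and 41.1 CPM at 24 h, against 2.6, 2.13 and 1.64 CPM at 6 h (log2 fold change 4.23 with SE 0.37, adjusted p = 2.8e-09). Its neighbour on chromosome 2, CMPK2, a mitochondrial nucleotide kinase, had 58.4, 45.6 and 44.6 CPM at 24 h, against 4.66, 2.19 and 1.91 CPM at 6 h (log2 fold change 4.10 with SE 0.30, adjusted p = 1.1e-10). IFI44L had 219.9, 183 and 207 CPM at 24 h, against 22.4, 17.7 and 10.5 CPM at 6 h, a 12.1-fold rise (adjusted p = 9.6e-12). MX2 is a dynamin-like GTPase that blocks nuclear entry of viruses, and rose 10.5-fold, to 276, 209 and 260.1 CPM at 24 h, against 28.7, 29.8 and 12.8 CPM at 6 h. Both IFI44L and MX2 had been lower at 6 h than at 0 h (log2 fold changes -0.85, adjusted p = 0.017, and -0.78, adjusted p = 0.042). Of the IFIT genes, IFIT1 averaged 419 ± 55.7 CPM at 24 h and 45.8 ± 11.4 CPM at 6 h. IFIT2 averaged 118 ± 12.8 CPM at 24 h and 19.8 ± 1.98 CPM at 6 h. For IFIT3 the means were 197 ± 18 CPM at 24 h and 25.4 ± 2.96 CPM at 6 h (SD, n = 3 each). IFIT3 rose with a log2 fold change 2.96 with SE 0.12, adjusted p = 1.9e-14. OAS2 makes the second messenger that activates RNase L. It had 808, 664 and 645 CPM at 24 h, against 112, 106 and 54.4 CPM at 6 h (log2 fold change 2.96, adjusted p = 2.4e-11).

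Among members that act against entry or translation of viruses, IFITM1, a membrane protein that blocks fusion, had 144, 108 and 161 CPM at 24 h, against 16.9, 20.2 and 10.3 CPM at 6 h (log2 fold change 3.13, adjusted p = 1.8e-12), with the reservation that reads of the near-identical IFITM2 and IFITM3 may be shared. SAMD9L is a brake on translation. It had 50.8, 50.8 and 43.4 CPM at 24 h, against 5.46, 6.77 and 4.09 CPM at 6 h (log2 fold change 3.16, adjusted p = 6.6e-11). The helicase-like gene DDX60 reached 318, 302 and 271 CPM at 24 h, against 42.9, 39.9 and 27 CPM at 6 h (log2 fold change 3.03, adjusted p = 4.4e-14). TRIM22 is a ubiquitin ligase gene. It averaged 58.8 ± 5.76 CPM at 24 h and 6.61 ± 0.965 CPM at 6 h, a rise of 8.91-fold (adjusted p = 1.7e-12). In all of these the 24 h and 6 h libraries did not overlap, as for 5961 called genes in all (34.2% of those tested). In library C at 6 h the level was the lowest of its group for ISG15, IFIT1, MX2, OAS2 and DDX60. Without it the count of listed genes that rose stayed within 1.5 times of 40, a wide limit that would not show the loss of several calls.

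Part of the machinery that makes and reads interferon rose as well. Of 26 tested genes for interferons, RNA sensors, receptors and STAT or IRF factors, 15 rose and 1 fell. The shares of all genes were 17.8% and 18.9%. The median log2 fold change of the 26 was 0.45, and 5 of the 31 listed were too low to test. STAT2 is a factor phosphorylated at interferon receptors. It had 282, 215 and 239.6 CPM at 24 h, against 58.1, 58.5 and 52 CPM at 6 h (log2 fold change 2.13, adjusted p = 4.7e-13). IFIH1 (MDA5), a cytosolic sensor of long double-stranded RNA, stood at 120.2, 119 and 118 CPM at 24 h, against 19, 16.9 and 15.1 CPM at 6 h (log2 fold change 2.81, adjusted p = 1.2e-12). Interferon transcripts themselves were scarce. IFNL1 is a type III interferon used at epithelial surfaces. It had no count at 6 h and 1.05 ± 0.344 CPM at 24 h (SD, n = 3), at least 5.69-fold higher when 3 counts are assumed in each 6 h library (adjusted p = 0.00096). Summed over 3 libraries, IFNL2 had 29 counts at 24 h and none at 6 h, IFNL3 had 33 and 2, and IFNB1 had 12 and 2, all below the filter, and IFNL2 and IFNL3 are near-identical copies. The gene that fell was IFNE, an interferon of epithelia (0.769 ± 0.474 CPM at 24 h and 2.27 ± 0.363 CPM at 6 h), and its call was lost without library C at 24 h, which left no gene falling. IFNL1 and IFNE were chosen for mention after their values were seen.

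Genes that present peptides to T cells on MHC class I moved the same way but by less. Of 19, 14 rose and none fell, against 17.8% rising and 18.9% falling among all genes, with a median log2 fold change of 0.51. TAP1 is a subunit of the peptide transporter. It had 114, 100.4 and 102 CPM at 24 h, against 47.4, 46.7 and 48 CPM at 6 h (log2 fold change 1.16 with SE 0.08, adjusted p = 4.1e-11). PSMB8 is a subunit of the immunoproteasome. It had 74.3, 61 and 68.2 CPM at 24 h, against 30.7, 30.9 and 33 CPM at 6 h (log2 fold change 1.10, adjusted p = 4.5e-09), and the heavy chain gene HLA-C averaged 119 ± 8.95 CPM at 24 h and 54.9 ± 4.03 CPM at 6 h (SD, n = 3, log2 fold change 1.11, adjusted p = 4.8e-09), although related HLA genes may share its reads. Among those that did not pass the test were ERAP2, TAP2, CALR and PDIA3.

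**Figure D2:**
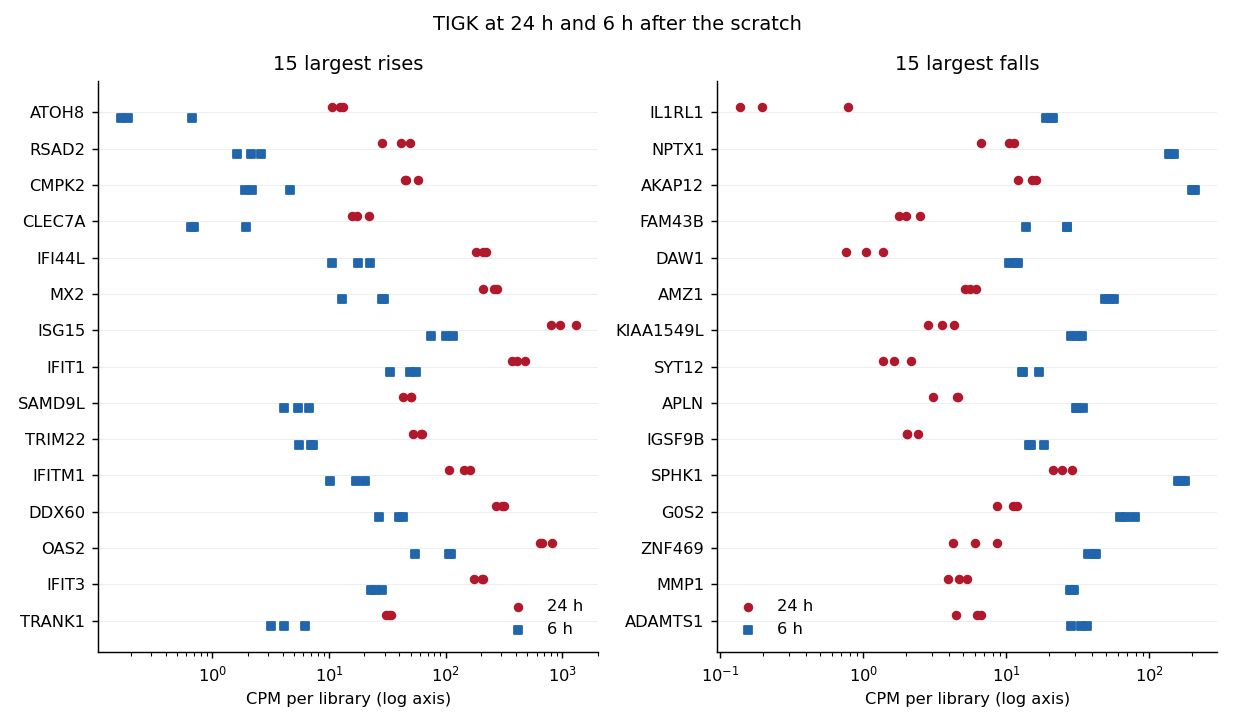
CPM of the 15 genes with the largest rise (left) and the 15 with the largest fall (right) in TIGK, on a log axis, with 3 libraries at 24 h (red circles) and 3 at 6 h (blue squares) for each gene. The times do not overlap for any of the 30 genes, as the choice of the genes required, and 12 of the 15 that rose most are on the list of interferon-stimulated genes.

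The remaining genes among the 15 largest rises have other roles. ATOH8 is a basic helix-loop-helix transcription factor. It had 13.2, 10.7 and 12.5 CPM at 24 h, against 0.665, 0.188 and 0.164 CPM at 6 h, the largest change of all named genes that rose (log2 fold change 5.18 with SE 0.45, adjusted p = 2.6e-09). CLEC7A (dectin-1) is a receptor for fungal beta-glucan. It had 22.2, 17.2 and 15.9 CPM at 24 h, against 1.93, 0.689 and 0.655 CPM at 6 h (log2 fold change 4.10 with SE 0.41, adjusted p = 2.8e-08). TRANK1 had 30.5, 33.8 and 32.8 CPM at 24 h, against 6.19, 4.13 and 3.17 CPM at 6 h (log2 fold change 2.86, adjusted p = 3.4e-10). In build hg38 ATOH8 (ENSG00000168874) lies at chr2:85751344-85788066, and CLEC7A (ENSG00000172243) at chr12:10116777-10130258. For each of the 3 genes the 6 h libraries were near or below the 0 h level, and each was new at 24 h.

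Most genes of mitosis rose, and 18 of 38 genes of DNA replication fell, where 17.8% of all genes rose and 18.9% fell. Of 39 genes of G2 and mitosis, 37 rose at 24 h against 6 h and none fell (median log2 fold change 0.95), and their summed level lay between 3330 and 3927 CPM at 24 h and between 1789 and 1991 CPM at 6 h. The other two were BUB3, with 146 ± 8.86 CPM at 24 h and 138 ± 5.18 CPM at 6 h, and PRC1, with 0.268 ± 0.207 CPM at 24 h and 0.688 ± 0.375 CPM at 6 h (SD, n = 3 each). PRC1 was near the filter in all libraries and overlaps the antisense gene PRC1-AS1, so its value is uncertain. TPX2 is a spindle assembly factor. It had 221, 245 and 214 CPM at 24 h, against 90, 93.8 and 99.9 CPM at 6 h (log2 fold change 1.26 with SE 0.08, adjusted p = 6.4e-12). The kinesin KIF20A, which works at the cleavage furrow, had 112, 126 and 103 CPM at 24 h, against 29.6, 29 and 37.2 CPM at 6 h (log2 fold change 1.83 with SE 0.11, adjusted p = 8.8e-12), and its 6 h libraries were also below those at 0 h (log2 fold change -0.47, adjusted p = 0.016). CCNB2 had 58.1, 71.7 and 61.8 CPM at 24 h, against 17.8, 21.3 and 20.9 CPM at 6 h (log2 fold change 1.67, adjusted p = 9.8e-12). At 6 h against 0 h, 5 of the 39 had fallen and none had risen.

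Of 38 genes of replication and S phase, 18 fell and 2 rose (median log2 fold change -0.24). UHRF1 keeps DNA methylation through replication. It had 71.2, 78.2 and 59.8 CPM at 24 h, against 167, 154 and 152 CPM at 6 h (log2 fold change -1.17 with SE 0.10, adjusted p = 9.3e-10). CCNE1 is the cyclin that starts S phase. It had 9.23, 9.6 and 11.6 CPM at 24 h, against 22.2, 24.6 and 24.2 CPM at 6 h (log2 fold change -1.23, adjusted p = 4.9e-07), and both genes had risen at 6 h before falling under the 0 h level. The flap endonuclease gene FEN1 averaged 63.7 ± 4.16 CPM at 24 h and 96.2 ± 2.18 CPM at 6 h (SD, n = 3, log2 fold change -0.60, adjusted p = 6.0e-07). The risers were RRM1, a subunit of ribonucleotide reductase (165 ± 13.3 CPM at 24 h and 122 ± 5.41 CPM at 6 h), and CDC45 (24.8 ± 2.04 CPM at 24 h and 20.2 ± 2.24 CPM at 6 h), and the count of rises was 1 when library B or C at 24 h or A or B at 6 h was left out. CDKN1A (p21) is the p53 target that inhibits cyclin-dependent kinases. It had 185, 171 and 208 CPM at 24 h, against 94, 77.6 and 80 CPM at 6 h (log2 fold change 1.17 with SE 0.09, adjusted p = 2.8e-10).

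Among p53 targets 14 of 26 rose and 2 fell, where 17.8% of all genes rose and 18.9% fell. The exonuclease gene AEN fell (17.8 ± 2.21 CPM at 24 h and 45.7 ± 2.59 CPM at 6 h, SD, n = 3, log2 fold change -1.36, adjusted p = 2.5e-09). The other was PLK3, a kinase (8.43 ± 0.498 CPM at 24 h and 14.4 ± 2.48 CPM at 6 h). DDB2 is a DNA damage sensor. It had 51, 49 and 55.2 CPM at 24 h, against 30.3, 27.7 and 28.8 CPM at 6 h (log2 fold change 0.84, adjusted p = 3.5e-08). Genes that restrain growth and targets of FOXO factors rose more widely, 20 of 24 with 1 that fell (median log2 fold change 0.81). FBXO32 (atrogin-1) is a ubiquitin ligase of protein breakdown. It had 24.9, 19.5 and 20.7 CPM at 24 h, against 3.26, 4.01 and 3 CPM at 6 h (log2 fold change 2.66 with SE 0.22, adjusted p = 1.4e-09). TSC22D3 (GILZ) is a gene switched on by glucocorticoids. It had 148, 117 and 141 CPM at 24 h, against 54.4, 46.1 and 44.1 CPM at 6 h (log2 fold change 1.49, adjusted p = 3.9e-11). CDKN2B (p15) averaged 85.6 ± 12.5 CPM at 24 h and 28.7 ± 5.32 CPM at 6 h (SD, n = 3, log2 fold change 1.58, adjusted p = 7.1e-10). CCND2, cyclin D2, was the member that fell (49.3 ± 3.92 CPM at 24 h and 92.2 ± 10.1 CPM at 6 h, adjusted p = 9.8e-08), and 18 of the 24 were new at 24 h.

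Genes that build ribosomes fell almost as a whole. Of 29, 27 fell and none rose, against 18.9% falling among all genes (median log2 fold change -0.78), and the summed level lay between 3633 and 4013 CPM at 24 h and between 5998 and 6127 CPM at 6 h. RRP12 is needed to export and process ribosome precursors. It had 50.7, 56.3 and 58.4 CPM at 24 h, against 151, 156 and 155 CPM at 6 h (log2 fold change -1.48 with SE 0.07, adjusted p = 1.1e-13). MYBBP1A is a nucleolar protein. It had 164, 173 and 151 CPM at 24 h, against 348, 353 and 326 CPM at 6 h (log2 fold change -1.07, adjusted p = 3.2e-11). NOLC1 is a nucleolar chaperone. It averaged 193 ± 17 CPM at 24 h and 369.6 ± 19.8 CPM at 6 h (SD, n = 3, log2 fold change -0.93, adjusted p = 2.1e-10). MYC itself did not pass the test (330.3 ± 12.1 CPM at 24 h and 377 ± 57.1 CPM at 6 h, adjusted p = 0.19), nor did NOP2, which was near the filter (0.776 ± 0.598 CPM at 24 h and 0.996 ± 0.114 CPM at 6 h), and 25 of the 29 were new at 24 h.

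Most genes of contractile actin and of adhesion to the matrix fell, where 18.9% of all genes fell and 17.8% rose. Of 25 genes for contractile actin and targets of SRF, 20 fell and none rose (median log2 fold change -0.50), although without library C at 24 h 2 were called as rising. FLNC is the actin crosslinker filamin C. It had 344, 377 and 352 CPM at 0 h, 876, 875 and 874 CPM at 6 h and 199, 191 and 138 CPM at 24 h. It had risen early (log2 fold change 1.29, adjusted p = 2.5e-07) and then fell below its starting level (log2 fold change -2.31 with SE 0.13, adjusted p = 1.1e-12). ACTN1 is alpha-actinin at focal adhesions. It had 599, 588 and 519.7 CPM at 24 h, against 940.5, 964 and 911 CPM at 6 h (log2 fold change -0.72, adjusted p = 1.1e-08). WDR1 disassembles actin filaments with cofilin. It had 394, 393 and 381 CPM at 24 h, against 664, 638 and 565 CPM at 6 h (log2 fold change -0.68, adjusted p = 2.2e-08). Of 24 genes for integrins, laminin-332 and wound matrix, 15 fell and 2 rose (median log2 fold change -0.44). ITGA2 is the collagen-binding integrin subunit. It had 26.7, 25.6 and 25 CPM at 0 h, 56.4, 57.7 and 54.6 CPM at 6 h and 17.9, 19.5 and 20.7 CPM at 24 h. ITGA2 fell by 1.54 log2 units at 24 h against 6 h (adjusted p = 5.1e-11). THBS2 is a matrix glycoprotein. It averaged 99.6 ± 2.92 CPM at 24 h and 278 ± 10.2 CPM at 6 h (SD, n = 3, log2 fold change -1.48, adjusted p = 9.8e-12). The members that rose were DST and ITGB4, both parts of the hemidesmosome that anchors resting keratinocytes, and without library C at 24 h there were 4. DST had 541, 524 and 461 CPM at 24 h, against 288, 278 and 279 CPM at 6 h (log2 fold change 0.85, adjusted p = 1.4e-07).

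Matrix proteases and their inhibitors changed in 18 of 25 genes, 13 of them falling (median log2 fold change -0.22), where 18.9% of all genes fell. MMP1 is interstitial collagenase. It had 8.97, 9.12 and 6.13 CPM at 0 h, 27.9, 28.9 and 29.6 CPM at 6 h and 3.93, 5.29 and 4.65 CPM at 24 h. MMP1 fell by 2.64 log2 units at 24 h against 6 h (adjusted p = 2.5e-11). ADAMTS1 is a protease of proteoglycans. It had 4.45, 6.66 and 6.22 CPM at 24 h, against 28.5, 36.8 and 33 CPM at 6 h (log2 fold change -2.50, adjusted p = 9.8e-12). The 5 members that rose, near the 17.8% share of all genes, were MMP13, MMP14, PLAU, MMP28 and ADAM10. MMP14 is a collagenase anchored in the cell membrane. It averaged 583 ± 22.5 CPM at 24 h and 323 ± 16.1 CPM at 6 h (SD, n = 3, log2 fold change 0.85, adjusted p = 2.8e-10).

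Lists for signals that act on these genes were divided. Of 21 targets of YAP and TAZ, 8 fell and 3 rose, where 18.9% of all genes fell and 17.8% rose. F3 (tissue factor) is the trigger of clotting. It had 150.2, 169 and 146 CPM at 24 h, against 426, 475 and 513 CPM at 6 h (log2 fold change -1.61 with SE 0.10, adjusted p = 9.8e-12). The YAP inhibitor gene AMOTL2 rose (167 ± 19.4 CPM at 24 h and 123 ± 4.67 CPM at 6 h, SD, n = 3), and ASAP1 fell (64 ± 11.9 CPM at 24 h and 93.3 ± 14.3 CPM at 6 h, adjusted p = 0.0012). Of 25 genes for TGF-beta ligands, feedback and targets, 9 rose and 9 fell. Those that rose included the inhibitors of differentiation ID1 and ID3, classical targets of BMP signalling. ID1 had 311, 331 and 425 CPM at 24 h, against 63.6, 67.1 and 57.3 CPM at 6 h (log2 fold change 2.51 with SE 0.13, adjusted p = 2.9e-13). ID3 had 390.3, 329 and 427 CPM at 24 h, against 90.2, 84.8 and 66.3 CPM at 6 h (log2 fold change 2.25 with SE 0.11, adjusted p = 2.1e-13). For both genes the lowest library at 24 h lay far above the highest at 6 h. Genes of the epithelial-mesenchymal transition mostly did not pass the test: of 15, 1 rose (CDH3, 597 ± 35.9 CPM at 24 h and 529 ± 19.9 CPM at 6 h, a call lost without library A at 24 h and without library A or B at 6 h) and 2 fell. SNAI2 (Slug) averaged 93.8 ± 5.01 CPM at 24 h and 129 ± 2.06 CPM at 6 h (SD, n = 3, log2 fold change -0.46, adjusted p = 1.6e-05), and TWIST2 averaged 16.9 ± 1.17 CPM at 24 h and 34.2 ± 8.37 CPM at 6 h (log2 fold change -1.02, adjusted p = 6.3e-05). Without library A at 24 h 4 of the 15 fell, and without library C at 24 h 2 rose.

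Immediate-early genes, which answer a stimulus without new protein synthesis, moved both ways: of 31, 10 rose and 9 fell at 24 h against 6 h. The shares of all genes were 17.8% and 18.9%. FOSL1 (FRA-1) is an AP-1 subunit of migrating cells. It had 29.4, 42.6 and 31.2 CPM at 0 h, 60, 61.1 and 68.6 CPM at 6 h and 16.1, 20.2 and 20 CPM at 24 h. FOSL1 fell by 1.75 log2 units with SE 0.13 at 24 h against 6 h (adjusted p = 9.0e-11). JUNB is another AP-1 subunit. It had 172, 164 and 172 CPM at 0 h, 249, 244 and 221 CPM at 6 h and 363, 330.0 and 385 CPM at 24 h. JUNB rose by 0.59 log2 units with SE 0.08 at 24 h against 6 h (adjusted p = 1.1e-06). Thus FOSL1 was highest at 6 h and lowest at 24 h, while JUNB increased at each step. PHLDA1 had 74.1, 77.5 and 65.9 CPM at 24 h, against 137, 116 and 134 CPM at 6 h (log2 fold change -0.83, adjusted p = 1.0e-07). Of 27 genes for EGF receptor ligands and ERK feedback, 13 fell and 5 rose (median log2 fold change -0.55). The rises were near the share of all genes. DUSP4 is a phosphatase that turns ERK off. It had 16.2, 15.7 and 15.9 CPM at 24 h, against 59.1, 56.5 and 53.6 CPM at 6 h (log2 fold change -1.82 with SE 0.10, adjusted p = 4.7e-13). CCND1 is cyclin D1. It had 514, 531 and 437 CPM at 24 h, against 1048, 1072 and 1051 CPM at 6 h (log2 fold change -1.10, adjusted p = 2.6e-11), and the ligand gene NRG1 averaged 112 ± 12 CPM at 24 h and 251 ± 12.7 CPM at 6 h (SD, n = 3, log2 fold change -1.17, adjusted p = 4.3e-11). The 5 that rose were DUSP1, EPGN, ERRFI1, EGFR and ERBB3.

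Of 31 tested inflammatory genes 6 rose and 6 fell, near the shares of all genes (17.8% and 18.9%), and 7 of the 38 listed were too low to test. CXCL14 is a chemokine made by resting epithelia. It had 344, 313 and 425 CPM at 24 h, against 81, 89.6 and 49.5 CPM at 6 h (log2 fold change 2.30 with SE 0.16, adjusted p = 8.3e-11). BIRC3 is an inhibitor of apoptosis and NF-kB target. It had 20.6, 20.1 and 19.4 CPM at 24 h, against 6.12, 7.58 and 7.32 CPM at 6 h (log2 fold change 1.51, adjusted p = 1.6e-09). NFKBIA is the NF-kB inhibitor. It averaged 117 ± 11.1 CPM at 24 h and 70.6 ± 5.46 CPM at 6 h (SD, n = 3, log2 fold change 0.73, adjusted p = 1.8e-06). The count of falls was 3 without library C at 24 h or without library B at 6 h. Of 11 tested antimicrobial and secreted defence genes, 3 rose and 1 fell, and 8 of the 19 listed were too low to test. TNFSF10 (TRAIL) is a death ligand that interferon induces. It had 7.79, 8.82 and 11.4 CPM at 24 h, against 1.26, 1.19 and 1.53 CPM at 6 h (log2 fold change 2.80 with SE 0.24, adjusted p = 1.8e-09). PGLYRP3 and PGLYRP4, which bind bacterial cell wall, were low (2.57 ± 0.367 CPM at 24 h and 1.36 ± 0.513 CPM at 6 h, and 1.24 ± 0.172 CPM at 24 h and 0.484 ± 0.147 CPM at 6 h, SD, n = 3 each), and without library C at 24 h or at 6 h 1 of the 3 rises was left. PGLYRP3 lost its call without library B or C at either time, and PGLYRP4 without A or C at either time. The gene that fell was CAMP, at 0.332 ± 0.262 CPM at 24 h and 1.34 ± 0.69 CPM at 6 h. Without library B at 24 h or at 6 h none fell, and without library A at 24 h 2 did.

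Differentiation genes of the upper layers rose in 23 of 46 cases and fell in 3, where 17.8% of all genes rose and 18.9% fell. Their median log2 fold change was 0.75. The summed level lay between 2711 and 3216 CPM at 24 h and between 1013 and 1413 CPM at 6 h. KRT1 is the first keratin of the suprabasal layers. It had 106, 111 and 164 CPM at 24 h, against 24.4, 38.5 and 22.1 CPM at 6 h (log2 fold change 2.17 with SE 0.23, adjusted p = 5.8e-08). GRHL3 is a barrier transcription factor. It had 31.6, 35.4 and 32 CPM at 24 h, against 15.6, 11.8 and 8.9 CPM at 6 h (log2 fold change 1.45, adjusted p = 3.1e-07). In both genes library C was the lowest at 6 h, and the 24 h libraries lay above every 6 h library. The falls were SPRR2D, ALOXE3 and KLK10, and their count was 0 without library A at 24 h or library A at 6 h and 1 without library B at 6 h. Among the rises, HRNR had no read at 6 h and 5 reads in all at 24 h, so no fold is given.

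Basal keratinocyte genes were divided, with 5 of 16 rising and 6 falling. CAV1 is the coat protein of caveolae. It had 943, 1002 and 981 CPM at 24 h, against 1648, 1705 and 1499 CPM at 6 h (log2 fold change -0.73, adjusted p = 1.0e-08). TP63 is the master transcription factor of stratified epithelia. It had 288, 242 and 241 CPM at 0 h, 446, 399 and 349.7 CPM at 6 h and 277, 245 and 219.7 CPM at 24 h. TP63 fell by 0.69 log2 units with SE 0.10 at 24 h against 6 h (adjusted p = 3.8e-06), so that its early rise was gone at 24 h. KRT14 is the basal keratin. It averaged 10796 ± 1466 CPM at 24 h and 8745 ± 274 CPM at 6 h (SD, n = 3, adjusted p = 0.005), a call lost without library C at 24 h. SFN (14-3-3 sigma) is an epithelial adaptor protein. It had 715, 783 and 763 CPM at 0 h, 1164, 1201 and 1195 CPM at 6 h and 719.6, 693 and 873 CPM at 24 h. SFN fell by 0.64 log2 units at 24 h against 6 h (adjusted p = 1.0e-06). Keratins and alarmins of activated epidermis rose in 2 and fell in 3 of 12, where 17.8% of all genes rose and 18.9% fell. With no filter on low counts and with 9 or 6 TIGK libraries only, 4 of them rose. KRT6A is a keratin induced at wound edges. It had 7552, 7583 and 6924 CPM at 0 h, 10740, 10570 and 9245 CPM at 6 h and 7493, 6995 and 7310 CPM at 24 h. KRT6A fell by 0.49 log2 units at 24 h against 6 h (adjusted p = 3.0e-06), although KRT6B and KRT6C may share its reads. S100A10 is a partner of annexin A2. It had 656, 647 and 800.4 CPM at 24 h, against 468, 489 and 467 CPM at 6 h (log2 fold change 0.56, adjusted p = 4.8e-06). SERPINB3 was low and rose, 1.57 ± 0.686 CPM at 24 h and 0.376 ± 0.157 CPM at 6 h (SD, n = 3), and its near-identical neighbour SERPINB4 may share reads.

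Oral mucosa genes mostly did not pass the test or were too low for it. Of 18, 7 failed the filter, and of 11 tested 2 rose and 2 fell, near the shares of all genes (17.8% and 18.9%). EMP1 is an epithelial membrane protein. It had 89.8, 84.6 and 93.8 CPM at 24 h, against 116, 126 and 149 CPM at 6 h (log2 fold change -0.54, adjusted p = 0.00011). TMPRSS11E is a protease of squamous epithelia. It averaged 4.16 ± 0.936 CPM at 24 h and 1.27 ± 0.488 CPM at 6 h, and KRT4 averaged 0.335 ± 0.208 CPM at 24 h and 1.03 ± 0.252 CPM at 6 h (SD, n = 3 each), both called. The KRT4 call was lost without library B at 24 h (adjusted p = 0.0626) and with 9 TIGK libraries only (adjusted p = 0.0519). PAX9 was the second riser, and 1 riser was left without library A at 24 h or library A or C at 6 h, while 1 fall was left without library B at 24 h and 4 were called without all 3 letter C libraries of TIGK. Of 25 genes for desmosomes, tight junctions and connexins, 11 rose and 5 fell, the falls near the share of all genes (18.9%). DSG3 is a desmosomal cadherin. It had 323, 293 and 283 CPM at 24 h, against 150.1, 148 and 114 CPM at 6 h (log2 fold change 1.12 with SE 0.10, adjusted p = 4.7e-09). GJB2 is a gap junction protein. It had 74.8, 68.6 and 80 CPM at 24 h, against 204, 190.1 and 163 CPM at 6 h (log2 fold change -1.32, adjusted p = 5.6e-10). Without library B at 6 h, 3 of the 25 fell. Of 17 Notch genes, 3 rose and 4 fell, near the shares of all genes (17.8% and 18.9%). DLL3 averaged 16.2 ± 1.52 CPM at 24 h and 35.5 ± 4.43 CPM at 6 h and NOTCH2, whose reads may be shared with its partial copies, 116 ± 21.9 CPM at 24 h and 173 ± 1.85 CPM at 6 h, and both fell, while NOTCH3 rose (164 ± 41.5 CPM at 24 h and 90.5 ± 21.9 CPM at 6 h, SD, n = 3 each). Without library C at 24 h or at 6 h, 1 Notch gene rose.

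Genes of cholesterol and fatty acid synthesis fell early in part, and part of them rose late. Of 31, 13 had fallen at 6 h against 0 h (1.12% of all genes) and none had risen. At 24 h against 6 h 16 rose and 3 fell (median log2 fold change 0.24). Among all genes 17.8% rose and 18.9% fell. INSIG1 holds the sterol sensor in the endoplasmic reticulum and is itself a target of SREBP. It had 152, 152 and 125 CPM at 0 h, 92.4, 93.8 and 78.5 CPM at 6 h and 155, 147 and 141 CPM at 24 h. INSIG1 rose by 0.74 log2 units with SE 0.08 at 24 h against 6 h (adjusted p = 1.1e-07). MSMO1 is a sterol demethylase. It had 194, 183 and 167 CPM at 0 h, 119, 119 and 109 CPM at 6 h and 191, 173 and 215 CPM at 24 h. MSMO1 rose by 0.74 log2 units at 24 h against 6 h (adjusted p = 1.4e-07). STARD4 is a carrier of cholesterol. It averaged 49.2 ± 2.99 CPM at 24 h and 23.2 ± 3.86 CPM at 6 h (SD, n = 3, log2 fold change 1.09, adjusted p = 1.9e-08). Of the 31 genes, 7 met the definition of an undone change given below. The 3 that fell were TM7SF2, DHCR7 and SCD, of which 1 was left without library B at 24 h.

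Other metabolic and stress lists moved less evenly, where 17.8% of all genes rose and 18.9% fell. Of 31 genes of glycolysis and the hypoxia response, 12 fell and 5 rose, the rises near the 17.8% of all genes. PFKP is a phosphofructokinase. It had 117, 109.8 and 117 CPM at 24 h, against 203, 208 and 189 CPM at 6 h (log2 fold change -0.80, adjusted p = 3.0e-09). PFKFB3 makes the activator of that enzyme. It averaged 53.9 ± 2.82 CPM at 24 h and 86 ± 7.18 CPM at 6 h, with BNIP3, a mitophagy receptor, at 129 ± 10 CPM at 24 h and 198 ± 12.7 CPM at 6 h (SD, n = 3 each, both lower). Of 26 targets of NRF2 and the aryl hydrocarbon receptor, 10 rose and 3 fell. CYP1B1 is a target of that receptor. It had 93.6, 103 and 75.4 CPM at 24 h, against 46.6, 44.9 and 32.5 CPM at 6 h (log2 fold change 1.13, adjusted p = 5.5e-08). SLC7A11 is the cystine importer. It averaged 71.1 ± 7.95 CPM at 24 h and 36.3 ± 0.589 CPM at 6 h, and GCLC, which makes the first intermediate of glutathione, 146 ± 2.72 CPM at 24 h and 102 ± 9.09 CPM at 6 h (SD, n = 3 each, both higher). The 3 that fell were AHRR, TIPARP and NQO1, of which 1 was left without library B at 24 h or at 6 h. Of 29 genes of the unfolded protein and integrated stress responses, 10 rose and 4 fell. ATF4 is the factor that drives the integrated response. It had 244, 247 and 279 CPM at 24 h, against 177, 170.2 and 164 CPM at 6 h (log2 fold change 0.59, adjusted p = 5.6e-07), and the chaperone genes PDIA4 and HSP90B1 averaged 440.3 ± 11.1 CPM at 24 h and 301 ± 14.3 CPM at 6 h, and 834 ± 56.1 CPM at 24 h and 585 ± 15.6 CPM at 6 h (SD, n = 3 each, both higher).

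Clock genes fell in 8 of 18 cases, against 18.9% of all genes, and rose in 4, near the 17.8% of all genes. CRY1 is a repressor in the clock loop. It had 11.7, 10.4 and 13.6 CPM at 24 h, against 22.4, 21.1 and 19.2 CPM at 6 h (log2 fold change -0.81, adjusted p = 4.6e-05). PER1 is a clock repressor that also answers glucocorticoids. It had 249.6, 215 and 208 CPM at 24 h, against 160.4, 158 and 140.2 CPM at 6 h (log2 fold change 0.55, adjusted p = 1.1e-05). DBP is an output factor. It averaged 15.4 ± 1.98 CPM at 24 h and 5.92 ± 1.74 CPM at 6 h (SD, n = 3, log2 fold change 1.38, adjusted p = 3.0e-05). Without library A at 24 h or library C at 6 h, 2 clock genes rose. Of 13 mitochondrially encoded transcripts, 3 rose and none fell, where 17.8% of all genes rose and 18.9% fell. With the letter as a replicate block 6 rose, and with no filter on low counts 5 rose and 3 fell. MT-CO1 had 18660, 17890 and 17500 CPM at 24 h, against 15520, 15350 and 11530 CPM at 6 h and MT-CO3 9768, 9044 and 10340 CPM at 24 h, against 8557, 8246 and 5569 CPM at 6 h, and library C at 6 h was the lowest for both. The MT-CO3 call was lost without that library (or library C at 24 h), the MT-ND3 call (479 ± 80.1 CPM at 24 h and 372 ± 24.3 CPM at 6 h, SD, n = 3) was lost without library C at 24 h, and without library C at 6 h or B at 24 h 1 transcript fell.

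The 15 largest falls came from genes of several functions. IL1RL1 (ST2) is the receptor of the alarmin IL-33. It had 4.49, 6.87 and 4.16 CPM at 0 h, 20.4, 18.8 and 21.4 CPM at 6 h and 0.197, 0.784 and 0.137 CPM at 24 h, the largest fall of the named genes with a measurable level at both times (log2 fold change -5.72 with SE 0.33, adjusted p = 1.9e-12). IL1RL1 (ENSG00000115602) lies at chr2:102311502-102352037 in build hg38. It had risen in the first 6 h (log2 fold change 1.98, adjusted p = 2.0e-06) and ended far below its starting level (24 h against 0 h, log2 fold change -3.74, adjusted p = 2.8e-08). AKAP12, a scaffold for protein kinases A and C, went the same way, with 80.4, 100 and 91 CPM at 0 h, 206, 198 and 208 CPM at 6 h and 16, 15.1 and 12 CPM at 24 h. AKAP12 fell by 3.82 log2 units with SE 0.11 at 24 h against 6 h (adjusted p = 7.7e-18). NPTX1, a pentraxin known from synapses, fell at both steps, with 263, 250.4 and 215 CPM at 0 h, 149, 138 and 139.6 CPM at 6 h and 11.3, 10.5 and 6.63 CPM at 24 h. NPTX1 fell by 3.90 log2 units with SE 0.14 at 24 h against 6 h (adjusted p = 1.1e-15). SPHK1 is the kinase that makes sphingosine 1-phosphate. It had 21.2, 24.7 and 29 CPM at 24 h, against 166, 176 and 159 CPM at 6 h (log2 fold change -2.74, adjusted p = 2.9e-13). G0S2 is an inhibitor of the fat lipase ATGL. It had 22.1, 27.8 and 24.6 CPM at 0 h, 62.1, 68.5 and 79.2 CPM at 6 h and 8.58, 11.8 and 11.1 CPM at 24 h. G0S2 fell by 2.74 log2 units at 24 h against 6 h (adjusted p = 3.9e-11). APLN is the peptide hormone apelin. It had 4.58, 4.51 and 3.08 CPM at 24 h, against 30.7, 34.2 and 31.1 CPM at 6 h (log2 fold change -2.97, adjusted p = 2.6e-10). The further genes of this group were FAM43B, DAW1, AMZ1, KIAA1549L, SYT12, IGSF9B and ZNF469, with log2 fold changes between -3.42 (FAM43B) and -2.67 (ZNF469), together with MMP1 and ADAMTS1 above.

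Changes at 6 h were sorted by what followed. An early change was counted as undone when 6 h differed from 0 h, 24 h differed from 6 h in the opposite direction and 24 h did not differ from 0 h in the test, which does not show that the start level was regained. The comparisons of 6 h with 0 h and of 24 h with 6 h share the 6 h libraries, so their directions are not independent. Of 630 early changes, 240 were undone (1.38% of all genes tested), 167 of them early rises and 73 early falls. A further 172 passed the 0 h level and were called on its other side (0.988%), and 23 were undone in part (0.132%). Another 113 were kept (0.649%), 47 were carried further in the same direction (0.27%), and 35 were called at 6 h against 0 h but at neither later comparison (0.201%). The number undone was 129 without library B at 6 h and 147 without library A at 6 h, and 295 without library C at 6 h.

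Of the early rises that were undone, 5 are given by the smaller of their 2 changes, the largest first. PMEPA1 is a brake on TGF-beta signalling. It had 26.9, 28.2 and 19.5 CPM at 0 h, 108, 102 and 75.2 CPM at 6 h and 23.4, 23.6 and 24.2 CPM at 24 h (24 h against 6 h, adjusted p = 1.3e-11). NFATC2 is a calcium-driven transcription factor. It had 3.38, 2.94 and 3.37 CPM at 0 h, 13.3, 11.6 and 9.01 CPM at 6 h and 4.32, 2.81 and 4.58 CPM at 24 h. NFATC2 fell by 1.53 log2 units at 24 h against 6 h (adjusted p = 0.00021). Library C was the lowest at 6 h for both genes. The choice of the genes required every 6 h library, C included, to lie above every library of the other times. S1PR1 is a receptor for sphingosine 1-phosphate. It had 6.02, 9.29 and 6.01 CPM at 0 h, 20.2, 19.7 and 17.1 CPM at 6 h and 6.35, 8.56 and 5.2 CPM at 24 h (24 h against 6 h, adjusted p = 9.0e-05). PTHLH is a parathyroid hormone-like peptide. It had 13.9, 17.6 and 13.1 CPM at 0 h, 38.1, 37.8 and 35.9 CPM at 6 h and 12.2, 13.8 and 11.9 CPM at 24 h. PTHLH fell by 1.56 log2 units at 24 h against 6 h (adjusted p = 2.4e-11). INHBA encodes the subunit of activin A. It had 30.5, 38.8 and 35.9 CPM at 0 h, 80.1, 77.1 and 73 CPM at 6 h and 40.3, 34.2 and 31.5 CPM at 24 h. INHBA fell by 1.12 log2 units at 24 h against 6 h (adjusted p = 5.9e-07). All 5 genes had 24 h libraries within or near the range of 0 h, which the definition of an undone change favours, as it asks for no call between these times.

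Early falls that were undone were ordered in the same way. FAM117A had 26.8, 28.1 and 22.3 CPM at 0 h, 16.3, 12.8 and 13.5 CPM at 6 h and 28.9, 26.5 and 24.2 CPM at 24 h. FAM117A rose by 0.90 log2 units with SE 0.12 at 24 h against 6 h (adjusted p = 2.8e-06). ROBO1 is a guidance receptor for SLIT proteins. It had 35.8, 25.7 and 28.7 CPM at 0 h, 20.2, 18.1 and 15.7 CPM at 6 h and 39.4, 33.8 and 33.2 CPM at 24 h. ROBO1 rose by 0.98 log2 units with SE 0.12 at 24 h against 6 h (adjusted p = 7.4e-07). INSIG1 is described above. EPGN (epigen) is a ligand of the EGF receptor. It had 17.8, 18.9 and 20.5 CPM at 0 h, 13.6, 8.83 and 13.2 CPM at 6 h and 18.6, 21.8 and 19.8 CPM at 24 h. EPGN rose by 0.76 log2 units at 24 h against 6 h (adjusted p = 0.0021). RNPC3 is a protein of the minor spliceosome. It averaged 11 ± 1.53 CPM at 24 h and 6.11 ± 0.837 CPM at 6 h, and TK2, the mitochondrial thymidine kinase, 12.9 ± 1.68 CPM at 24 h and 7.35 ± 1.6 CPM at 6 h (SD, n = 3 each). The early calls of EPGN, RNPC3 and TK2 were not stable: EPGN lost its call without library B at 6 h or any of the 3 libraries at 0 h, RNPC3 without A or B at 6 h or A at 0 h, and TK2 without A at 6 h or B or C at 0 h. The count of early falls undone was 34 without library B at 6 h, 42 without A at 6 h and 39 without A at 0 h, against 73.

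**Figure D3:**
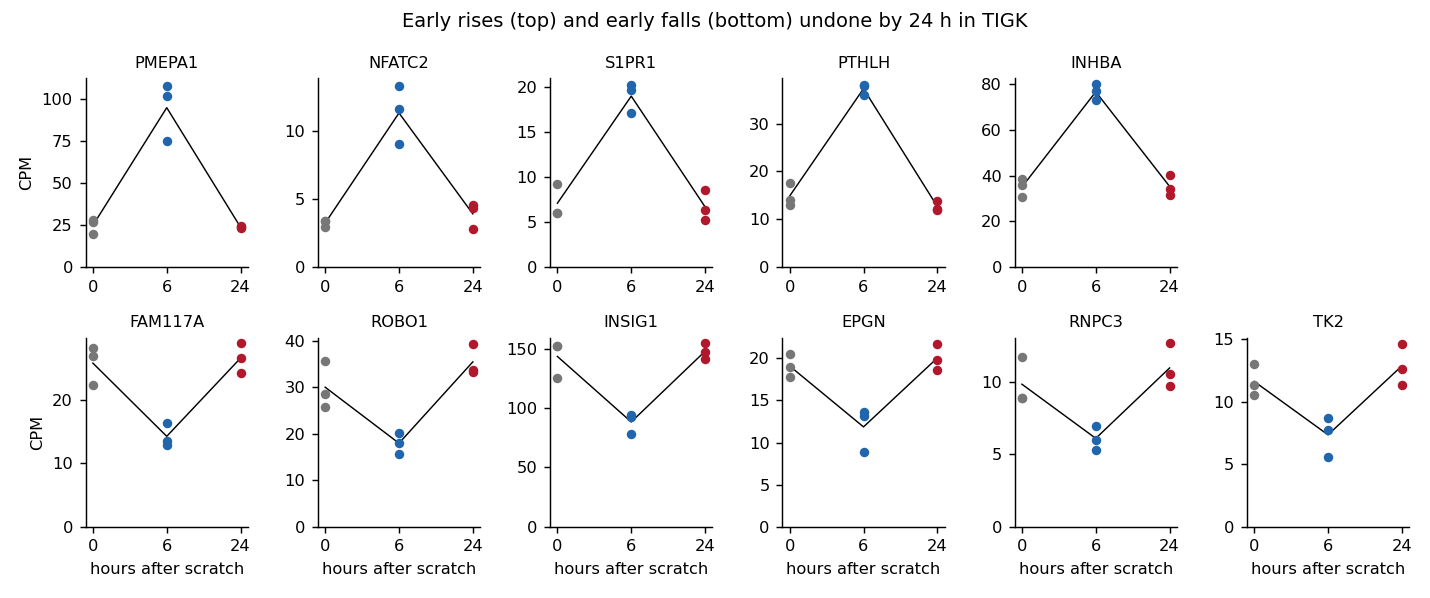
CPM per library (points) and group means (line) at 0 h, 6 h and 24 h in TIGK for 5 early rises (top) and 6 early falls (bottom) that were undone, each panel with its own axis from 0. The 6 h libraries lie above both other times in the top row and below them in the bottom row, as the choice of the genes required, and PMEPA1 has 6 h libraries of 108, 102 and 75.2 CPM.

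Genes whose early change was kept included FN1, fibronectin, with 712, 643 and 631 CPM at 0 h, 1455, 1461 and 1381 CPM at 6 h and 1689, 1699 and 1312 CPM at 24 h (6 h against 0 h, log2 fold change 1.11, adjusted p = 3.5e-09, and 24 h against 6 h, 0.13, adjusted p = 0.23). ITGB6 is the epithelial integrin subunit that frees TGF-beta. It had 21.4, 20.6 and 19.1 CPM at 0 h, 55.4, 46.5 and 40.2 CPM at 6 h and 44.3, 40.7 and 47 CPM at 24 h. ITGB6 had a log2 fold change of -0.10 at 24 h against 6 h (adjusted p = 0.46). Among changes carried further were those of JUN, an AP-1 subunit, with 128, 111 and 91.5 CPM at 0 h, 209, 209.7 and 148 CPM at 6 h and 315, 242 and 271 CPM at 24 h, and of KLF4, a barrier transcription factor, with 33.3, 35.5 and 25.3 CPM at 0 h, 57.2, 56.4 and 40.6 CPM at 6 h and 77.9, 78 and 76.2 CPM at 24 h, both rising at each step. FN1, ITGB6, JUN and KLF4 were chosen after their values were seen. The number kept was 75 without library B at 6 h and 181 without library C at 6 h, and the number carried further 20 without A at 6 h, 22 without B at 6 h and 28 without B at 0 h. The number that passed the 0 h level was 106 without A at 6 h, 92 without B at 6 h and 104 without A at 0 h.

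Changes that were new at 24 h were far more numerous. A total of 4315 genes (24.8%) were not called between 6 h and 0 h but were called at 24 h against both earlier times. Both late calls had the same direction, 2028 higher and 2287 lower. A missing early call does not show that a gene was unchanged at 6 h. ACTB, counted as new, had an early log2 fold change of 0.26 (adjusted p = 0.054). A further 1593 (9.15%) were called at 24 h against 6 h only, and 947 (5.44%) against 0 h only. No call in any of the 3 comparisons was made for 9924 genes (57%). Lists with many new members were ribosome biogenesis (25 of 29), interferon-stimulated genes (31 of 41), G2 and mitosis (29 of 39), and growth restraint (18 of 24). Of the 744 list members tested, 306 were new at 24 h, 46 passed the 0 h level and 35 were undone.

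**Figure D4:**
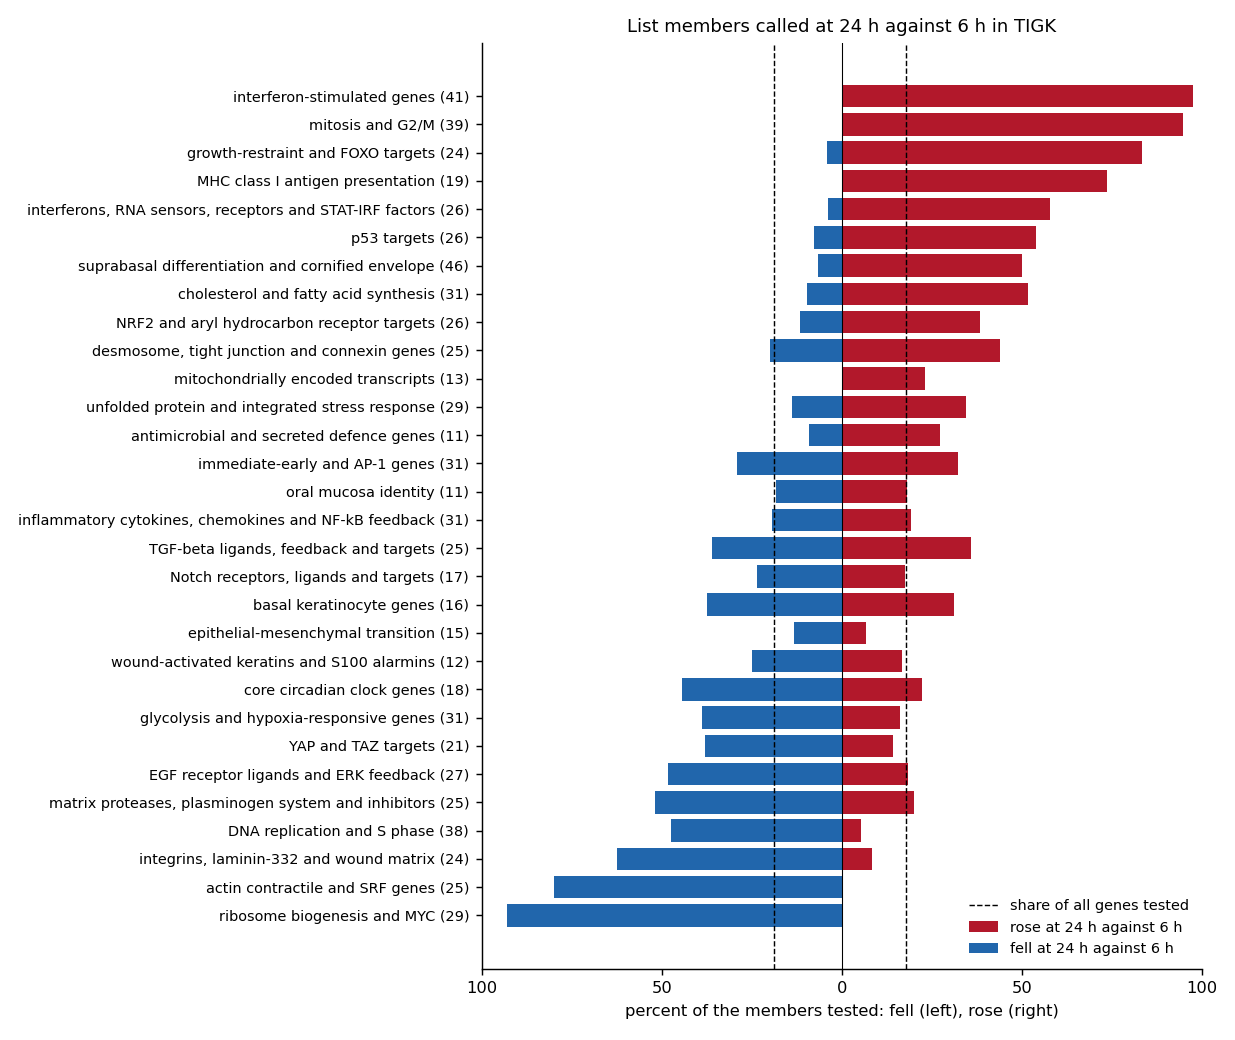
Share of each list's tested members (number in brackets) that rose (red, right) or fell (blue, left) at 24 h against 6 h in TIGK, for the 30 lists with at least 10 members tested, with dashed lines at the shares of all genes, 17.8% and 18.9%. Interferon-stimulated genes stand at the top with 40 of 41 rising and ribosome biogenesis at the bottom with 27 of 29 falling.

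HaCaT cells went through a shift of similar breadth over the same hours, with 6212 genes called at 24 h against 6 h (35.7%), 17.6% of all genes rising and 18.1% falling. The difference between the lines in this change, (24 h over 6 h in TIGK) over (24 h over 6 h in HaCaT), was called for 3053 genes (17.5%), 1512 positive (8.69%) and 1541 negative (8.85%). Of the interferon-stimulated genes, 35 of 41 had a positive line difference and none a negative one, while in HaCaT 6 of the 41 rose, near the 17.6% of all genes, and 2 fell. ISG15 averaged 19.4 CPM at 24 h and 18.2 CPM at 6 h in HaCaT, and the line difference on the log2 scale was 3.30, adjusted p = 3.8e-10. For RSAD2, with 0.959 CPM at 24 h and 0.907 CPM at 6 h in HaCaT, it was 4.15, adjusted p = 0.00012. Of 39 genes of G2 and mitosis, 27 rose and 1 fell in HaCaT (median log2 fold change 0.43), against 37 and none in TIGK. The line difference was positive for 29 of them and negative for 1. Of 29 genes of ribosome biogenesis, 27 fell in each line, and 15 had a positive line difference, a smaller fall in TIGK.

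The opposite order held for inflammatory and hypoxia genes. In HaCaT 21 of 31 inflammatory genes rose, against 6 in TIGK, and the line difference was negative for 18 and positive for 1. Of 31 genes of glycolysis and hypoxia 22 rose in HaCaT, against 5 in TIGK, and the line difference was negative for 21 and positive for none. PFKFB3 averaged 368 CPM at 24 h and 194 CPM at 6 h in HaCaT, where it rose (log2 fold change 0.92, adjusted p = 4.2e-09), and the line difference was -1.60, adjusted p = 1.4e-09. BNIP3, with 76.6 CPM at 24 h and 57.2 CPM at 6 h in HaCaT, also rose there while it fell in TIGK (line difference -1.03, adjusted p = 1.2e-06). Immediate-early genes rose in 22 of 31 cases in HaCaT, and 20 of the 31 had a negative line difference. Cholesterol genes rose in 26 of 31 cases in HaCaT, with 15 negative line differences. For actin and SRF genes 17 of 25 fell in HaCaT, with 3 line differences in each direction. These 3 were not far from the shares of all genes (8.69% positive and 8.85% negative). In HaCaT 17.6% of all genes rose and 18.1% fell.

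**Figure D5:**
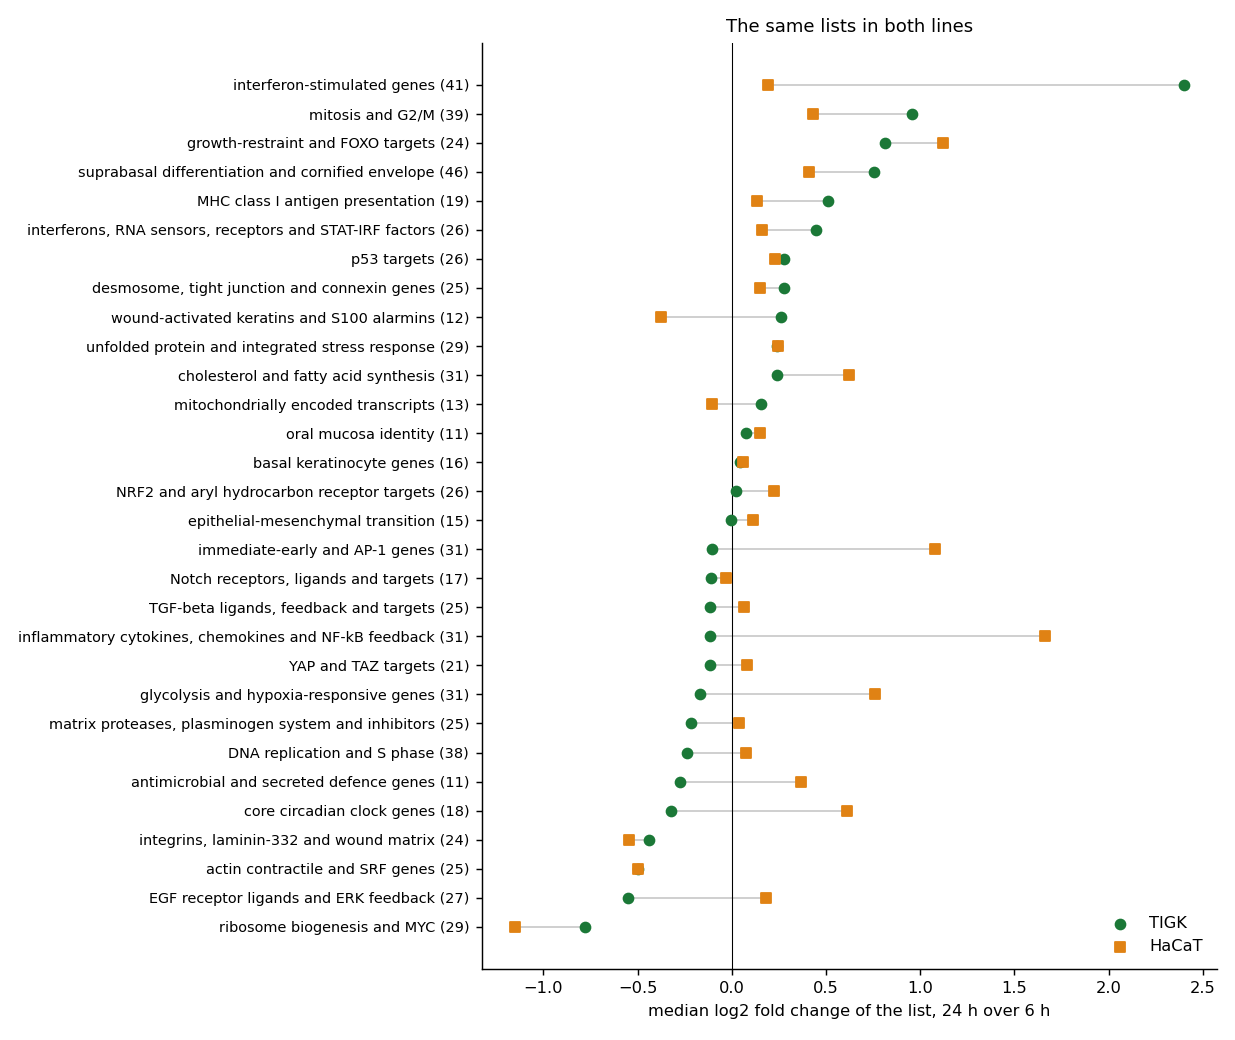
Median log2 fold change of each list at 24 h over 6 h in TIGK (green circles) and in HaCaT (orange squares), for the 30 lists with at least 10 members tested (number in brackets), ordered by TIGK; where 1 symbol hides the other the medians are close. The lines lie farthest apart for interferon-stimulated genes, with 2.40 in TIGK and 0.19 in HaCaT, and for inflammatory genes, with -0.12 in TIGK and 1.66 in HaCaT.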

How the data were processed

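RNA-seq was made from TIGK and HaCaT cells at 0 h, 6 h and 24 h, 3 libraries per group. Per the labels, total RNA was extracted with Trizol and libraries were built by a company. The tools named in the submitters' processing notes are featureCounts 1.5.0-p3, HISAT2 2.0.5 and StringTie 1.3.3b, and the build is hg38. Whether reads were counted by strand is not given in the sources used here. The deposited table of the authors holds whole-number read counts per gene, and a second deposited table holds FPKM, which the authors computed per gene length and library. Columns carry the letters A to C, which the labels do not tie to replicate numbers. Deviations of same-letter libraries at 24 h and 6 h were nearly uncorrelated over the genes tested. Library C of TIGK nevertheless lay lowest of its group on the second principal component at each time, and the reason was not tested.

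The tests on counts came from edgeR 4.0.16, run in R 4.3.3: filterByExpr, TMM scaling, 6 group means over 18 libraries (12 residual degrees of freedom), quasi-likelihood tests, and Benjamini-Hochberg adjustment over 17409 genes, with a threshold of 0.05 for a call. CPM uses TMM-scaled library sizes, the prior count was 0.125, SE is the absolute log2 fold change over the square root of F, and all p-values are two-sided. FPKM was used with limma 3.58.1 as an alternative, and DESeq2 1.42.0 as another. The pipeline was tested on simulated counts. Named genes are the 15 largest changes each way and 6 undone changes each way (protein-coding, with a symbol that occurs 1 time, called, libraries not overlapping, a level of 10 CPM or more in 1 of the 2 times), the 3 largest line differences each way (at least 10 CPM in 1 group), and up to 3 members per list with the lowest adjusted p (the highest level where none passed). Some genes that this rule names are not reported here. The members and the 35 lists were chosen with earlier results of these data known. Gene lists were matched by symbol, and 1745 rows share a symbol with another row. Fold bounds against a group without counts assume 3 counts per library and cover counting error only.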

Additional observations from a re-analysis of the deposited data

Results flagged for a closer look

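The change between 6 h and 24 h differed between TIGK and HaCaT by the test of that difference in the following genes, given as TIGK minus HaCaT on the log2 scale. In 11 of the 133 named genes the lines were called in opposite directions, as in 372 of the 17409 genes tested. Some of the named genes were chosen for large line differences, so these counts are not compared.

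NFATC2 had a difference of 4.80, adjusted p = 0.00043, with a deeper fall in HaCaT, to 0.0212 CPM at 24 h, against 2.36 CPM at 6 h. HENMT1, which methylates piRNAs, differed by 4.34, adjusted p = 0.027, but HaCaT held no read at 24 h and 0.102 CPM at 6 h, while TIGK averaged 38 ± 2.76 CPM at 24 h and 27.3 ± 0.541 CPM at 6 h (SD, n = 3). RSAD2 differed by 4.15, adjusted p = 0.00012. ZNF469 differed by -6.86, adjusted p = 0.0027, G0S2 by -6.01, adjusted p = 0.026 and PLIN2, the lipid droplet coat protein, by -5.38, adjusted p = 0.0017. These fitted values lean on groups near 0: HaCaT averaged 0.13 CPM at 24 h and 0 CPM at 6 h for ZNF469 and 0.0641 CPM at 24 h and 0 CPM at 6 h for G0S2, and PLIN2 averaged 32.2 CPM at 24 h and 23.5 CPM at 6 h in HaCaT, while in TIGK it had no read at 24 h and 0.223 CPM at 6 h.

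Genes that moved in opposite directions at higher levels were INHBA (-2.27, adjusted p = 7.7e-09), which fell in TIGK and averaged 89 CPM at 24 h and 40 CPM at 6 h in HaCaT, PHLDA1 (-1.09, adjusted p = 1.2e-06), TP63 (-1.29, adjusted p = 2.8e-07), PFKFB3 (-1.60, adjusted p = 1.4e-09) and BNIP3 (-1.03, adjusted p = 1.2e-06). All 5 fell in TIGK and rose in HaCaT. S100A10 (0.983, adjusted p = 9.7e-07), SERPINB3 (3.33, adjusted p = 8.0e-05) and MT-ND3 (0.789, adjusted p = 0.00024) rose in TIGK and fell in HaCaT. The reads of SERPINB3 may be shared with SERPINB4, and the MT-ND3 call in TIGK was lost without library C at 24 h.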

How the results depend on the processing

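The count of genes called at 24 h against 6 h, 6390, ranged from 5417 to 6679 over 10 alternatives (DESeq2, median-of-ratios scaling, no filter, a stricter filter, 9 or 6 TIGK libraries, the letter as a replicate block, limma on log2(FPKM + 0.5), no letter C libraries at 0 h and 6 h, and none at 0 h, 6 h and 24 h, the last chosen after seeing the data) and from 5466 to 5788 when 1 library at 24 h or 6 h was left out. None of the genes called in both was called in the opposite direction. With the letter as a replicate block 6679 were called. Same-letter libraries had correlations of deviations of 0.00751, 0.0131 and 0.0269, and the letters were not taken as pairs. Library C nevertheless lay lowest of its group on the second principal component at each time. Leaving out 1 library gave 2591 to 2777 rises, 2875 to 3034 falls, 4680 to 5770 calls at 24 h against 0 h, 2568 to 3236 line differences and 3734 to 4071 changes new at 24 h.

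Early changes depended more on the settings. With 9 TIGK libraries only, 338 genes were called at 6 h against 0 h, 136 early changes were undone (103 rises and 33 falls), 77 passed the 0 h level, 69 were kept and 25 were carried further, and the cause was not tested. DESeq2 gave 278, 172 and 73 for the last 3. Without the letter C libraries at 0 h and 6 h together 46 early falls were undone, and without those at all 3 times 72 changes were carried further. That last setting called 5619 genes at 24 h against 6 h, and 5054 of them were among the 6390. Leaving out 1 library gave 350 to 817 early calls, 129 to 295 undone (95 to 211 rises and 34 to 84 falls), 92 to 204 past the 0 h level, 75 to 181 kept and 20 to 60 carried further.

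Of 147 named gene results, none reversed and 11 lost their call under at least 1 alternative, among them PLIN2 with limma on FPKM. Of 70 list counts, 23 moved by over 1.5 times under at least 1 alternative, none of them the rises of interferon-stimulated or mitotic genes or the falls of ribosome biogenesis. Genes below the filter on low counts were not tested, and at this depth nothing is said of their change.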

Other observations

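Gene families taken by symbol after the values were seen gave further descriptions. Histone genes (symbols starting with HIST), which encode the proteins that package DNA, rose in 14 of 29 tested and fell in none (median log2 fold change 1.06), where 17.8% of all genes rose. HIST1H2AC had 24.1, 23.1 and 35.7 CPM at 24 h, against 10.7, 11.6 and 8.85 CPM at 6 h (log2 fold change 1.42, adjusted p = 5.0e-07), and HIST2H2BE had 8.78, 9.08 and 10.5 CPM at 24 h, against 3.53, 3.82 and 3.88 CPM at 6 h (log2 fold change 1.33, adjusted p = 9.4e-07). Most of these genes are near-identical to each other, and reads may be shared. The 4 APOL genes on chromosome 22 all rose, APOL1 by 2.05 log2 units (adjusted p = 4.7e-10). Tubulin genes fell in 7 of 20 and rose in none, where 18.9% of all genes fell. TUBB2A, a beta tubulin, had 20, 19.5 and 23.1 CPM at 24 h, against 51.9, 58.4 and 52.5 CPM at 6 h (log2 fold change -1.38, adjusted p = 5.7e-09).

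Subunits of the RNA polymerases fell in 15 of 32 and rose in 3, where 18.9% of all genes fell and 17.8% rose. POLR1A, the large subunit of the enzyme that transcribes ribosomal RNA, had 129.9, 132 and 102 CPM at 24 h, against 208, 209.8 and 213 CPM at 6 h (log2 fold change -0.79, adjusted p = 1.1e-07). DEAD and DEAH box genes fell in 23 of 52 (44.2%) and rose in 8 (15.4%), the rises near the share of all genes. Genes for cytosolic ribosomal proteins fell in 4 of 76 (5.26%) and rose in 8 (10.5%), both below the shares of all genes (18.9% and 17.8%). Host genes of small nucleolar RNAs (SNHG) fell in 6 of 20 and rose in 1, with SNHG17 at 23.4, 25.3 and 27.2 CPM at 24 h, against 45.4, 51.1 and 49.9 CPM at 6 h.

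Long intergenic RNAs rose in 114 of 779 (14.6%) and fell in 55 (7.06%), both below the shares of all genes (17.8% and 18.9%). BISPR, which starts beside the interferon target BST2, had 19.1, 14.6 and 23 CPM at 24 h, against 3.46, 3.38 and 3.66 CPM at 6 h (log2 fold change 2.43, adjusted p = 2.6e-07), UCA1 had 19.6, 12.3 and 10.3 CPM at 24 h, against 4.59, 5.58 and 4.53 CPM at 6 h (log2 fold change 1.52, adjusted p = 6.7e-07), and MIR22HG, the host of a microRNA, had 12.4, 11 and 18.4 CPM at 24 h, against 36.7, 37.8 and 41.1 CPM at 6 h (log2 fold change -1.47, adjusted p = 5.0e-09). Without a stated strand setting, reads of overlapping or antisense genes cannot be told apart.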
